A study of Caenorhabditis elegans with 4 samples.

Results

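The regions described here are the ZFP-1 peaks on the arms of chromosome III of Caenorhabditis elegans. A peak is a stretch of the genome where sequenced DNA pulled down with a ZFP-1 antibody piled up, as called by the authors. Members were chosen by position alone: peaks of the series list on III with a midpoint below 3720000 (left arm) or at or above 10340000 (right arm), on WormBase build WS220. There were 841 of them among the 13878 peaks of the series list, 408 on the left arm and 433 on the right arm. The centre of III between the boundaries held a further 1218. The same windows held 221 of the 3559 peaks of replicate 1 and 419 of the 6371 peaks of replicate 2.

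The experiment was chromatin immunoprecipitation with sequencing (ChIP-seq) of wild-type N2 worms at the L3 larval stage, grown at 20 degrees Celsius, both sexes mixed. It comprised 2 ZFP-1 ChIP samples, replicates 1 and 2, and 2 input DNA samples. ChIP and input came from the same kind of extract, which was whole-animal, so all tissues contribute to each peak. The affinity-purified rabbit antibody was raised against residues 573 to 867 of ZFP-1. Peak lists of the ChIP samples and of the series were analysed, and no input list was used, so no input background stands beside the values. Whether the replicates were grown separately is not given, so their spread may be technical. The series has 2 ChIP libraries, and the series list is therefore no independent measurement beside the replicate lists. Read depth is unknown.

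ZFP-1 is a chromatin protein with zinc fingers, the worm relative of mammalian AF10, and partners the histone methyltransferase DOT-1.1. Each C. elegans autosome has a gene-rich centre with little recombination, flanked by arms that recombine more and carry more repeats and more repressive histone methylation. Chromosome III has the smallest share of its ZFP-1 peaks in the centre of any autosome in these data. The values below describe this by arm, by peak width and by replicate.

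Peaks were sparser on both arms than in the centre of III. The left arm held 110 series-list peaks per Mb, the right arm 126 and the centre 184. The left arm thus had 0.60 times the density of the centre (95% interval 0.53 to 0.67; exact two-sided binomial test, adjusted p = 6.44e-20 over 9 tests). The right arm had 0.69 times the density of the centre (0.61 to 0.77; exact binomial test, adjusted p = 2.43e-11). Among the highest-scoring 10% of the list, to which 10.0% of all peaks belong, the ratios were 0.84 on the left (0.61 to 1.14; exact binomial test, adjusted p = 0.303) and 0.70 on the right (0.49 to 0.97; exact binomial test, adjusted p = 0.0536). These tests, and all intervals below, treat neighbouring peaks as independent and cover counting error over peaks only.

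Each replicate gave the same order of the windows. In replicate 1 the densities were 28.5 peaks per Mb on the left arm, 33.5 on the right arm and 47.6 in the centre. In replicate 2 they were 53.5, 64.2 and 79.6 peaks per Mb. The left arm ratio to the centre was 0.60 (0.48 to 0.75; exact binomial test, adjusted p = 6.09e-06) in replicate 1 and 0.67 (0.57 to 0.79; adjusted p = 3.12e-06, exact binomial test) in replicate 2. For the right arm the ratio was 0.70 (0.56 to 0.88; exact binomial test, adjusted p = 0.00201) in replicate 1 and 0.81 (0.69 to 0.95; adjusted p = 0.0103, exact binomial test) in replicate 2.

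The right arm was denser than the left in each list, but not beyond counting error after adjustment. The ratio of right to left was 1.15 in the series list (1.00 to 1.32; exact binomial test, adjusted p = 0.0537). It was 1.18 in replicate 1 (0.90 to 1.55; exact binomial test, adjusted p = 0.227) and 1.20 in replicate 2 (0.99 to 1.46; adjusted p = 0.0712, exact binomial test). With the outermost 500 kb at each end of III left out the series-list ratio was 1.03, and with only peaks met by replicate 2 kept it was 1.22 (1.03 to 1.44; exact binomial test, adjusted p = 0.0239). Among the highest-scoring 10% it was 0.83 (0.56 to 1.22; exact binomial test, adjusted p = 0.347), the other direction.

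To ask what sets III apart, the other 4 autosomes were divided at the same fractions of their length, 27.0% and 75.1%. The centre of III held 59.2% of its series-list peaks, against 64.8% on the other 4 together, a difference of -5.63 percentage points (95% interval -8.00 to -3.28). III had the lowest central share of the 5 autosomes in all 3 lists, and chromosome I was next lowest in each. In the series list the shares were 61.8% on I, 63.4% on II, 64.5% on IV and 69.5% on V. In replicate 1 III had 58.8% (54.5 to 63.0%), against 60.0% on I and 60.2% on IV. In replicate 2 III had 55.7% (52.5 to 58.9%), against 57.4% on I (54.2 to 60.5%). With V left out of the others, the series-list difference was -4.05 points (-6.50 to -1.62). The difference from the other 4 together was -5.13 points (-8.67 to -1.62) in replicate 2. In replicate 1 it was -3.73 points (-8.41 to 0.855), where the interval included 0. For series-list peaks met by replicate 1, that is, with replicate 2 left aside, it was -2.95 points (-6.67 to 0.661). With peaks under 5 kb apart merged it was -2.51 points (-6.70 to 1.64). With the middle 33.3% of each chromosome as the centre it was -6.12 points in the series list (-8.49 to -3.72). The replicate values were then -5.25 points (-9.80 to -0.564) in replicate 1 and -7.63 points (-11.0 to -4.14) in replicate 2. Whether the replicate 1 interval included 0 thus depended on the cut. With chromosomes as units, 1 autosome among 5 cannot reach a p below 0.2, so the rank is a description. That III had the lowest central share in these data was known when it was chosen. The rank and the sign of the difference were therefore given in advance, and the intervals describe its size only.

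With these cuts, the right arm carried almost all of this difference in the series list. It held 21.0% of the series-list peaks of III, against 15.9% in the matching part of the other autosomes, a difference of 5.15 points (3.26 to 7.12). The left arm held 19.8%, against 19.3% on the others, a difference of 0.478 points (-1.40 to 2.44). In replicate 1 the right arm differed by 5.16 points (1.51 to 9.13) and the left by -1.43 (-5.05 to 2.53). The values in replicate 2 were 5.80 points (2.93 to 8.84) and -0.669 (-3.49 to 2.33). So in each list the interval for the right arm lay above 0 and that for the left arm included 0. Because III was chosen for its low central share, a higher share on its arms together was given in advance. These intervals describe only the size of that excess and how it divided between the arms. The 3 lists also rest on the same 2 libraries. The same holds for the arm shares compared with other autosomes below. With the middle 33.3% of each chromosome as the centre, the right part of III differed by 4.25 points in the series list (2.08 to 6.48). The left part then differed by 1.87 points (-0.283 to 4.08), so how much each side carried depended on the cut. In the replicates the left part then differed by 0.309 points (-3.91 to 4.75) and 1.81 points (-1.42 to 5.15). The right part differed by 4.94 points (0.710 to 9.37) in replicate 1 and 5.82 points (2.56 to 9.19) in replicate 2.

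A high right arm share was not limited to III. Chromosome II had 22.4% of its series-list peaks in the right part, more than III, but only 14.2% in the left part. On I the left part held 21.5% and the right part 16.7%. On IV the shares were 22.6% and 12.9%, and on V they were 18.9% and 11.6%. Each of the other autosomes thus had at least 1 outer part with a share of 16.7% or less, while both arms of III lay at 19.8% or more. The same was true in the replicate lists, where the smaller arm share of III was 19.8% in replicate 1 and 21.0% in replicate 2. The smaller outer share of the other autosomes ran from 11.3% to 17.4% in replicate 1 and from 11.5% to 18.7% in replicate 2.

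**Figure D1:**
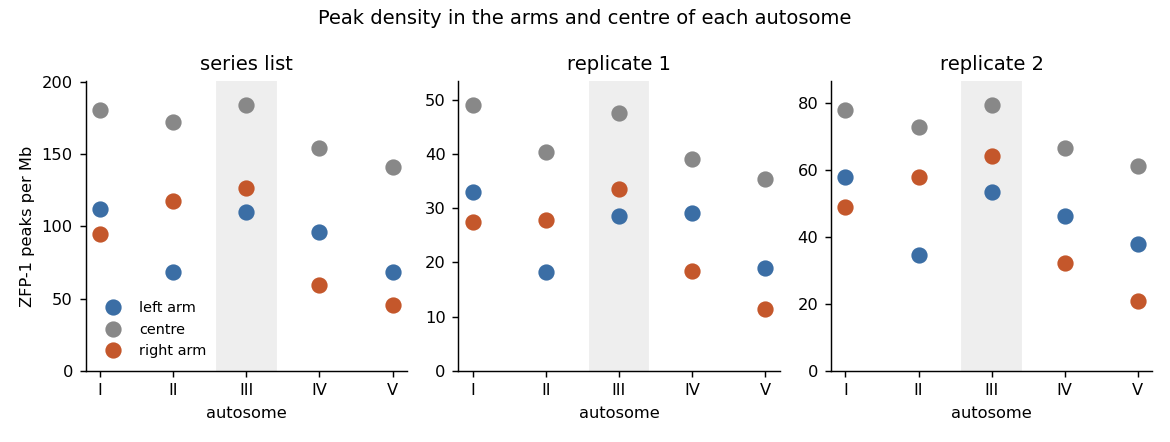
Peaks per Mb (vertical axis) in the left arm, centre and right arm of each autosome, cut at the same fractions of length, in the series list and in each replicate; each point is 1 window of 1 list and III is shaded. In the series list the right arm of III, at 126 peaks per Mb, is the densest outer part of any autosome, and its centre, at 184, is not lower than the other centres.

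The centre of III was not poor in peaks. Its 184 series-list peaks per Mb compare with 181 on I, 172 on II, 154 on IV and 141 on V. Against the other 4 centres together, the density ratio was 1.15 (1.08 to 1.23; exact binomial test, adjusted p = 2.35e-05 over 9 tests). The left arm of III was 1.29 times as dense as the other left parts (1.16 to 1.44; exact binomial test, adjusted p = 1.93e-05), and the right arm 1.67 times as dense as the other right parts (1.49 to 1.86; exact binomial test, adjusted p = 9.79e-18). The ratio was above 1 in every window and highest on the right, where its interval lay above those of the other windows. These tests, and those of the replicates below, take peaks as units, so their p-values do not cover the spread between chromosomes. With chromosomes as units no p below 0.2 could be reached here either. Because III was chosen for its low central share, a larger ratio on its arms together than in its centre was given in advance. The p-values for the arms are therefore no separate support for an arm excess.

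The replicates gave similar ratios for the right arm, 1.65 (1.32 to 2.04; exact binomial test, adjusted p = 1.93e-05) in replicate 1 and 1.68 (1.44 to 1.96; exact binomial test, adjusted p = 7.51e-10) in replicate 2. For the left arm the ratio was 1.22 (1.04 to 1.43; exact binomial test, adjusted p = 0.0143) in replicate 2, while in replicate 1 it was 1.17 (0.94 to 1.45; exact binomial test, adjusted p = 0.156), which did not pass. The other right parts include the sparse ones of IV, at 59.5 series-list peaks per Mb, and V, at 45.3, and the right part of II, at 117, came close to III.

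The tip of the right arm added to its share but did not account for all of it. With the outermost 500 kb at each end of every autosome left out, the right arm of III still held 4.10 points more of the series-list peaks than the other right parts (2.27 to 6.02). The matching values were 4.82 points (1.29 to 8.73) in replicate 1 and 4.75 points (1.97 to 7.74) in replicate 2. The left arm then differed by 1.38 points in the series list (-0.525 to 3.37). In the replicates it differed by -1.59 points (-5.23 to 2.42) and 0.405 points (-2.47 to 3.48).

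Peak widths separated the arms from the centre of III in the upper tail. The median width of series-list peaks was 299 bp on the left arm (quartiles 208 and 479 bp), 319 bp on the right arm (220 and 487 bp) and 346.5 bp in the centre (226 and 534.75 bp). Of all series-list peaks, 5.44% were 1000 bp wide or more. On the left arm 13 of 408 peaks, or 3.19%, were that wide, and on the right arm 18 of 433, or 4.16%, against 91 of 1218, or 7.47%, in the centre. The left arm share minus the central share was -4.28 points (95% interval -6.37 to -1.72), and for the right arm the difference was -3.31 points (-5.53 to -0.634).

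Replicate peaks, which were called broader, were compared at 4000 bp or more. In replicate 1, where 5.34% of all peaks were that wide, 2 of 106 left arm peaks, 6 of 115 right arm peaks and 28 of 315 central peaks were. In replicate 2, where 5.65% of all peaks were that wide, the counts were 4 of 199, 9 of 220 and 47 of 527. The left arm differed from the centre by -7.00 points (-10.9 to -1.57) in replicate 1 and -6.91 points (-9.91 to -3.18) in replicate 2. The right arm differed by -3.67 points (-8.28 to 2.62), an interval that included 0, and by -4.83 points (-8.18 to -0.723). Both arms together differed from the centre by -5.27 points (-9.33 to -0.979) in replicate 1 and by -5.82 points (-8.84 to -2.79) in replicate 2.

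At the other end of the scale, peaks under 1000 bp made up 28.1% of the arm peaks of replicate 1 and 14.6% of its central peaks on III, with 21.2% in the whole list. In replicate 2 they made up 31.7% on the arms and 21.1% in the centre, with 26.4% in the whole list. The difference was 13.5 points (6.45 to 20.6) in replicate 1 and 10.7 points (5.04 to 16.3) in replicate 2.

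The excess on the right arm of III relative to other autosomes was seen in every width class below 1000 bp. It was 5.79 points for peaks under 200 bp (1.56 to 10.4), 4.87 points from 200 to under 350 bp (1.64 to 8.35), 5.81 points from 350 to under 500 bp (1.65 to 10.4) and 5.55 points from 500 to under 1000 bp (1.62 to 9.91). For the widest class, 1000 bp or more, it was 2.28 points (-3.99 to 10.2), from 18 right arm peaks among 122 on III. In that class the centre of III held 74.6% of the peaks against 71.8% on the other autosomes, a difference of 2.83 points (-6.50 to 11.0). The lower central share of III was therefore not detectable among the widest peaks, where counts are small, and whether the classes differ from each other was not tested.

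**Figure D2:**
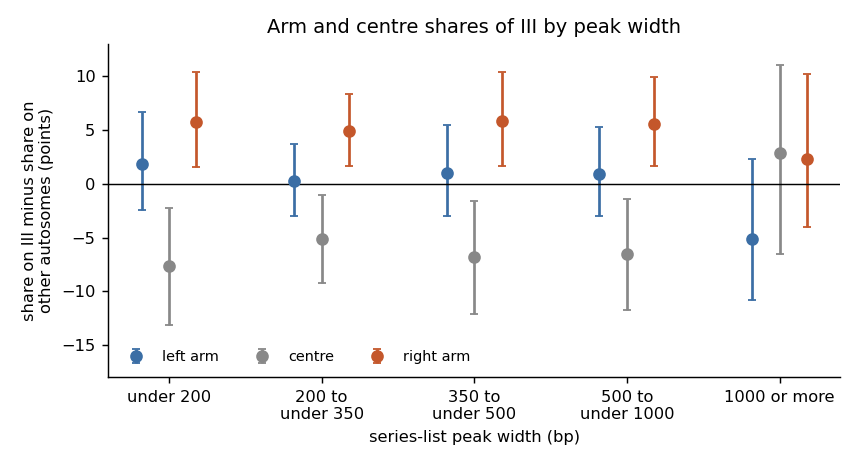
Difference between the share of peaks on III and on the other 4 autosomes (vertical axis, percentage points) for the left arm, centre and right arm in 5 classes of series-list peak width (horizontal axis, bp); points are differences and bars are 95% Newcombe intervals. Right arm points lie between 4.87 and 5.81 in the 4 classes under 1000 bp, with intervals above 0, and left arm intervals all include 0.

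Fewer arm peaks than central peaks of III were met in both replicates. Across the whole series list 38.4% of peaks overlapped a peak of each replicate. On the left arm 135 of 408 did, or 33.1% (28.5 to 37.9%), on the right arm 154 of 433, or 35.6% (31.1 to 40.3%), and in the centre 511 of 1218, or 42.0% (39.2 to 44.8%). The difference from the centre was -8.87 points for the left arm (-14.1 to -3.42) and -6.39 points for the right arm (-11.6 to -1.02).

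Peaks met in neither replicate, 25.3% of the whole list, made up 31.9% of the left arm, 27.3% of the right arm and 24.0% of the centre. That was 7.89 points more on the left arm than in the centre (2.90 to 13.1), while the right arm difference of 3.28 points (-1.41 to 8.23) included 0. Peaks met in replicate 2 alone were 35.4% of the whole list, 34.8% of the left arm and 36.3% of the right arm. Replicate 1 alone met 1 left arm peak and 4 right arm peaks.

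Peaks of the 3 main support classes differed in size on both arms. On the left arm, the class met in both had medians of 515 bp in width and 98.5 in score, and those met in neither had 197.5 bp and 9.09. Right arm peaks met in both had 532.5 bp and a score of 73.5, and those met in neither 198 bp and 7.74. The score is the authors' own value per peak and has no stated scale. Peaks met in replicate 2 alone lay between these, with 324.5 bp and 20.4 on the left arm and 325 bp and 21.7 on the right arm. In the centre, the class met in both had medians of 553 bp and 57.1, wider and lower-scoring than those of either arm.

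In the series list the arms held at least as large a share of high-scoring peaks as the centre. Of the left arm peaks 53.4% (48.5 to 58.4%) and of the right arm peaks 56.1% (51.3 to 60.9%) lay in the better-scoring 50% of the series list, to which 50.2% of all peaks belong because of ties. The centre had 51.9%, and neither arm differed from it beyond the interval, by 1.54 points (-4.05 to 7.09) and 4.23 points (-1.24 to 9.62). In the highest-scoring 10%, with 10.0% of all peaks, lay 64 left arm peaks, or 15.7% (12.3 to 19.6%), 49 right arm peaks, or 11.3% (8.49 to 14.7%), and 136 central peaks, or 11.2%. The left arm exceeded the centre by 4.52 points (0.797 to 8.71).

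This last difference was not resolved in the replicate lists. In replicate 1 the highest-scoring 10% held 14 of 106 left arm peaks and 34 of 315 central peaks, a difference of 2.41 points (-4.07 to 10.7). In replicate 2 the counts were 22 of 199 and 65 of 527, a difference of -1.28 points (-6.05 to 4.43). The better-scoring 50% of replicate 1 held 53.8% of left arm peaks, 55.7% of right arm peaks and 53.7% of central peaks. In replicate 2 both arms lay below the centre, with 53.3% and 50.9% against 54.8%, by -1.57 points (-9.67 to 6.46) and -3.93 points (-11.7 to 3.87).

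In the series list, shares of wide, high-scoring and replicate-supported peaks on the arms of III did not differ from those on the other autosomes' arms beyond counting error. Of the arm peaks of III 34.4% were met in both replicates, against 36.1% of the 2872 arm peaks elsewhere, a difference of -1.71 points (-5.31 to 2.00). By arm this was -4.83 points on the left (-9.84 to 0.433) and 1.74 points on the right (-3.35 to 7.01). For peaks met in neither, the arms differed by 4.34 points on the left (-0.544 to 9.48) and -3.79 points on the right (-8.53 to 1.23). In the highest-scoring 10% lay 13.4% against 13.5% (difference -0.0385 points, -2.54 to 2.71). Peaks of 1000 bp or more were 3.69% against 4.18% (difference -0.492 points, -1.83 to 1.15). The intervals leave room for differences of a few points in these shares.

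The replicate lists, compared in this way after the series-list values were seen, gave another value for score. In replicate 1, 33 of the 221 arm peaks of III, or 14.9%, lay in the highest-scoring 10% of the list, against 74 of 801, or 9.24%, on the other arms, a difference of 5.69 points (1.04 to 11.3). By arm this was 7.04 points on the right (0.347 to 15.3) and 4.16 points on the left (-1.82 to 12.2). In replicate 2 the shares were 11.0% and 7.99%, a difference of 2.99 points whose interval included 0 (-0.0499 to 6.58). Peaks of 4000 bp or more differed by 0.249 points in replicate 1 (-2.07 to 3.77) and by 0.167 points in replicate 2 (-1.45 to 2.43). The share met by the other replicate differed by 2.01 points (-0.748 to 3.75) and -0.324 points (-5.73 to 5.09).

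The replicates were then compared on the arms themselves. Replicate 2 listed 1.90 times as many arm peaks as replicate 1 and 1.67 times as many central peaks of III, against 1.79 times over all chromosomes. The arms held 41.2% of the replicate 1 peaks of III and 44.3% of the replicate 2 peaks, a difference of 3.06 points (-2.19 to 8.24). That interval takes the lists as independent, although 98.6% of the replicate 1 arm peaks met a replicate 2 peak. It therefore does not measure the error of this difference, and whether the replicates differ in arm share was not settled. Measured by the middle 33.3% of the chromosome, the central share of III was 38.8% (34.7 to 43.1%) in replicate 1 and 35.9% (32.9 to 39.1%) in replicate 2, lowest of the autosomes in both.

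Nearly every arm peak of replicate 1 was found in replicate 2. On the left arm 104 of 106 were, and on the right arm 114 of 115, with 97.8% in the whole list. In the other direction 99 of 199 left arm peaks of replicate 2 (49.7%, 42.6 to 56.9%) and 109 of 220 right arm peaks (49.5%, 42.8 to 56.3%) met a replicate 1 peak, close to the 50.4% of the whole list. In the centre 53.3% did, and the arms together differed from it by -3.68 points (-10.0 to 2.72).

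Replicate 2 arm peaks without a counterpart were weaker and narrower. On the left arm they had a median score of 132 and were 984 bp wide at the median, against 1321 and 1343 bp for peaks with one. On the right arm the values were 142 and 999 bp against 1114 and 1331 bp. The right arm excess was present in both sets: relative to other autosomes it was 5.42 points (1.54 to 9.64) for replicate 2 peaks met by replicate 1 and 6.22 points (2.09 to 10.7) for those not met.

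Scores of the replicates tracked each other on the arms. Among 97 left arm pairs of peaks that overlapped each other best, the log10 scores correlated with Pearson r = 0.75 and Spearman rho = 0.85, and among 107 right arm pairs r was 0.79 and rho was 0.84. These describe peaks of the same 2 libraries, not independent samples. Many replicate 2 scores are tied at 3100, and with pairs at or above that value in either list left out, the 82 left arm pairs gave r = 0.69 and the 90 right arm pairs r = 0.72. The replicate 2 peak was the wider in 74 of the left arm pairs and 77 of the right arm pairs.

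**Figure D3:**
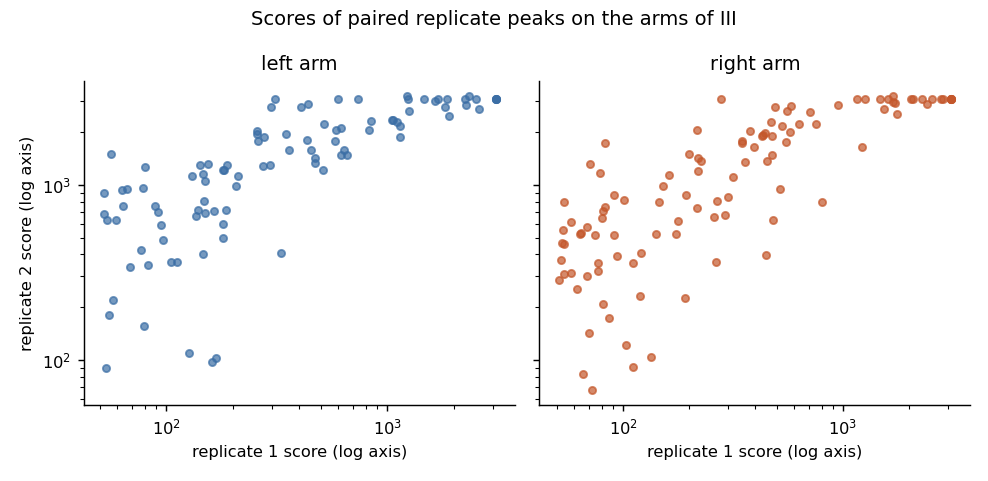
Replicate 2 score against replicate 1 score (both log axes, the authors' score with no stated scale) for peaks that overlap each other best, 97 on the left arm and 107 on the right arm of III; each point is 1 pair. Scores rise together on both arms, with Spearman rho of 0.85 and 0.84, and many pairs share a replicate 2 score of 3100.

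By series-list score the leading site of the arms lay on the right arm, on III from 13001931 to 13002632 (702 bp). It had a series score of 227.99, the highest of the whole list (2 peaks elsewhere share it), with a score of 2787 in replicate 1 and 3100 in replicate 2. It did not lead the replicate lists: 9 arm peaks of replicate 1 scored 3100 or more, 4 on the left arm and 5 on the right arm, and in replicate 2 there were 32. The next right arm sites by score that were met in both replicates were from 13181806 to 13182501 (score 202.48) and from 10904748 to 10905482 (197.68). They were followed by sites from 13105751 to 13106180 (196.54), from 11846788 to 11847320 (187.48) and from 12841150 to 12841666 (185.24). Of these 6 sites, 4 lay between 12841150 and 13182501, in the outer part of the arm.

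In the replicates these right arm sites scored over a wide range. The site from 11846788 scored 83.1 in replicate 1, under the lower quartile of 84.8 for right arm peaks of that list, and 1735 in replicate 2. The site from 10904748 scored 1699 in replicate 1 and 3199 in replicate 2. The site from 13105751 scored 394 and 1653.

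On the left arm the leading sites had closely similar series scores. The first was from 597938 to 598642 (705 bp, score 210.33), with 1467 in replicate 1 and 3100 in replicate 2. The others ran from 432836 to 433405 (208.62), 1680940 to 1681607 (207.94), 3127467 to 3128058 (207.82), 2576492 to 2577349 (205.56) and 3677121 to 3677797 (205.48). Their widths lay between 570 and 858 bp, and they were spread over the arm. In replicate 1 the 6 scores ran from 238 at the site from 2576492 to 1648 at the site from 3677121. In replicate 2 they ran from 2029 to 3100.

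The widest peaks of the arms were other sites, and they scored lower in the series list. The widest on the left arm was from 3619218 to 3623170 (3953 bp, score 130.31), inside a peak of 5454 bp in replicate 1 and of 6408 bp in replicate 2, the widest left arm peak of each. The second was from 1924423 to 1927014 (2592 bp, score 168.13), inside peaks of 4094 and 5266 bp. All 4 of these replicate peaks scored 3100.

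The widest on the right arm was from 10631864 to 10635269 (3406 bp, score 176.86), in peaks of 6003 bp in replicate 1 and 5579 bp in replicate 2. The second was from 12555780 to 12558986 (3207 bp, score 146.48). In replicate 2 the widest right arm peak was another, from 10812510 to 10820787 (8278 bp), which held 5 series-list peaks and which replicate 1 divided into 3. By comparison the widest replicate 2 peak in the centre of III spanned 18139 bp and held 15 series-list peaks. Of the replicate 2 peaks, 27.1% on the left arm, 24.1% on the right arm and 37.4% in the centre held 2 or more series-list peaks.

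Density varied along the arms by more than it did between them. In full 500 kb bins, the left arm had from 30 to 75 series-list peaks per bin (mean 50.4 ± 17.9, SD, 7 bins), the right arm from 44 to 75 (58.5 ± 10.2, SD, 6 bins) and the centre from 61 to 141 (91.9 ± 23.8, SD, 12 bins). The sparsest left arm bin was from 1500001 to 2000000 and the densest from 500001 to 1000000. On the right arm the sparsest full bin was from 12000001 to 12500000 and the densest from 11000001 to 11500000. Across the 13 full arm bins the peak counts of replicates 1 and 2 gave a Pearson r of 0.81 and a Spearman rho of 0.83, a description over positions of the same libraries.

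Some stretches inside the arms were as dense as the centre. The inner end of the left arm, from 3500001 to 3719999, held 55 series-list peaks, or 13.5% of the arm, at 250 per Mb, and the first part of the centre beyond it, from 3720000 to 4000000, had 268 per Mb. The remaining left arm had 101 per Mb. The right tip, from 13500001 to the last covered base at 13768814, held 62 peaks, or 14.3% of the arm, at 231 per Mb, against 117 per Mb in the rest of the arm. Both replicates showed these stretches: at the inner end of the left arm they had 77.3 and 123 peaks per Mb, and at the right tip 67.0 and 104. Without the inner end of the left arm, a choice made after seeing these values, the right to left ratio was 1.25 (1.09 to 1.45; exact binomial test, adjusted p = 0.00253). Without the right tip it was 1.07 (0.93 to 1.24; exact binomial test, adjusted p = 0.350). The right arm stayed the denser without either stretch, but the size of the ratio and whether it passed the threshold depended on them.

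**Figure D4:**
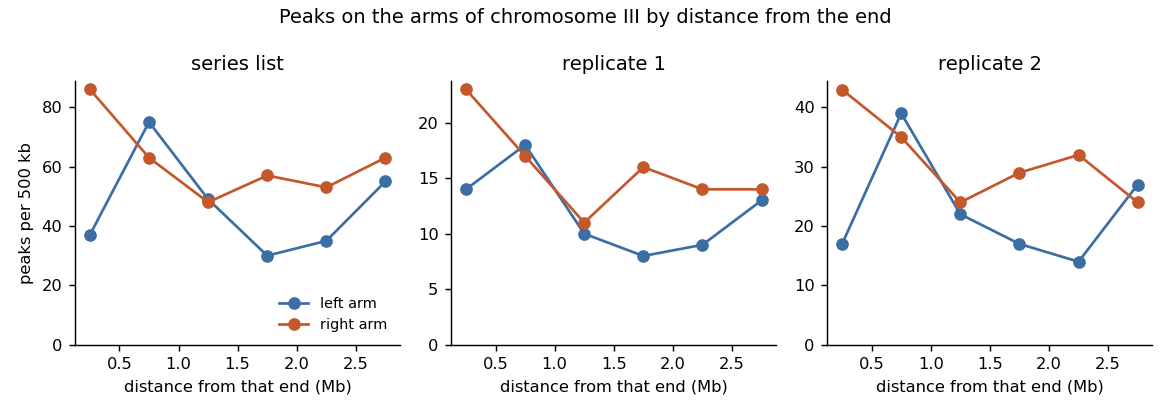
Number of peaks per 500 kb (vertical axis) against distance from the left or right end of III (horizontal axis, Mb) in the series list and each replicate; each point is 1 step of 500 kb. The outermost 500 kb held 37 series-list peaks at the left end and 86 at the right end, and from 1.5 to 2.5 Mb the left arm lies below the right arm in each list.

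In the series list the left arm had the longest stretch with no peak of the arms. From 1437041 to 1591660, 154.6 kb held no series-list peak, and the nearest peaks of replicate 2 lay at its edges. The next on that arm was from 2173183 to 2272166 (98.98 kb). On the right arm the 2 longest were from 12472780 to 12548184 (75.4 kb) and from 12178469 to 12250191 (71.7 kb). Stretches of 50 kb or more with no series-list peak numbered 7 on the left arm, 8 on the right arm and 3 in the centre, although the centre is the longest window, at 6.62 Mb against 3.72 and 3.43 Mb. The replicates differed from this in part. The longest replicate 2 stretch, 154.1 kb from 1437352 to 1591425, lay on the left arm too, but in replicate 1 it was on the right arm, from 12369663 to 12548913 (179.3 kb), against 173.4 kb on the left. Stretches of 50 kb or more numbered 29, 26 and 33 on the left arm, right arm and centre in replicate 1, and 17 in each of them in replicate 2.

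In the series list, peaks on the arms were more scattered than in the centre. The median distance to the nearest other series-list peak was 936 bp on the left arm, 926 bp on the right arm and 664 bp in the centre. With peaks under 5 kb apart joined into clusters, 21.1% of left arm peaks, 12.7% of right arm peaks and 11.3% of central peaks stood alone. Clusters of 5 or more peaks held 39.2% of left arm peaks, 45.3% of right arm peaks and 53.5% of central peaks. The replicates did not share this order throughout. In replicate 1 the median distance was 3692 bp on the left arm, 2401 bp on the right arm and 4511 bp in the centre, where the share of single peaks, 46.7%, exceeded those of the arms, 40.6% and 38.3%. In replicate 2 the distances were 2142, 1767 and 1754 bp and the shares of single peaks 31.2%, 26.8% and 30.2%. The largest arm cluster of the series list was at the right tip, from 13693963 to 13723531, with 19 peaks in 29.6 kb, and the largest on the left arm was from 1214690 to 1237634, with 13 peaks in 22.9 kb. A cluster of 23 peaks in the centre, from 8780080 to 8818502, was larger than either. Counted as series-list clusters, the left arm had 0.80 times the density of the centre (0.67 to 0.97; exact binomial test, adjusted p = 0.0314) and the right arm 0.78 times (0.64 to 0.94; exact binomial test, adjusted p = 0.0185).

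The boundaries themselves fall between peaks. The last series-list peak of the left arm was from 3703460 to 3703763 (score 33, met in replicate 2 alone) and the first peak beyond it from 3733848 to 3734579 (score 198.96, met in both). At the right boundary the last central peak was from 10333986 to 10334233 (score 10.51) and the first right arm peak from 10355327 to 10355706 (score 15.93), both met in neither replicate. The outermost peaks of III were from 14715 to 15555 (score 74.84) at the left end, met in both replicates, and from 13768146 to 13768444 (score 16.16) at the right end, met in replicate 2 alone.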

How the data were processed

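The data were 3 peak lists with coordinates and 1 score per peak, as the authors deposited them. Per the file contents the caller was MACS for the 2 ChIP replicates and MACS v2 for the series list. WormBase WS220 is the build per the file headers, and the submitters' processing notes also name BWA and ce10. Pooling, use of input and the score's scale are not given in the sources used here. Scores were ranked and filtered within a list, and between replicates were set side by side at matched peaks and correlated over them, with no comparison of their size. Peaks were assigned to no gene, since the gene table used here is on another build.

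The outermost base in any peak of the 3 lists (13768814) served as the end of III, a lower limit of its length. Peaks of separate lists were matched from 1 bp of overlap, with counts equal to those of bedtools 2.31.1. Density ratios have exact binomial intervals and tests, adjusted by Benjamini-Hochberg. Shares have exact Clopper-Pearson intervals and differences of shares Newcombe intervals, at 95%. The code ran on scipy 1.17.1, pandas 2.3.3 and numpy 2.4.6 under Python 3.11.15 and was tested on simulated data. Named peaks are the 6 highest-scoring per arm met in both replicates, the widest, and those nearest the boundaries and ends. Named bins, gaps and clusters are the extremes of each arm. Members, lists and tests were chosen with earlier results of these data known.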

Additional observations from a re-analysis of the deposited data

How the results depend on the processing

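Of 92 alternatives to 10 results, 65 kept the call or gave a value inside the main interval. That count includes some that could not change a result, such as the left arm to centre ratio without the right tip. It also includes values that moved without a change of call. Right to left, which had not passed, went from 1.15 to 1.03 without the outermost 500 kb. Among the best-scoring 10% of peaks the arm to centre ratios were 0.84 (left) and 0.70 (right), no longer past the threshold, the right to left ratio turned to 0.83, and the central share of III minus that of other autosomes was -2.95 points, its interval including 0. With peaks under 5 kb apart merged, right to left turned to 0.97 and the central difference was -2.51 points, not past 0. By covered bases the arm to centre ratios were 0.50 and 0.60. Right to left passed the threshold at 1.28 with both boundaries moved 250 kb outwards and at 1.25 without the dense inner end of the left arm. With only series-list peaks met by replicate 2 kept, right to left was 1.22, which passed (exact binomial test, adjusted p = 0.0239). With only those met by replicate 1 kept it was 1.26, which did not pass (exact binomial test, adjusted p = 0.0693). The central difference was -3.73 points in the replicate 1 list and -4.34 for peaks of 500 bp or more, with intervals including 0. It ran from -5.40 to -2.95 points without either replicate, the last without replicate 2, its interval including 0. The share met in both replicates became 4.90% (left) and 7.39% (right) with 50% reciprocal overlap, which narrow peaks inside wide ones fail. Counting 1 replicate, it ran from 33.3 to 67.9% (left) and from 36.5 to 71.8% (right). In replicate 2, 50.9% of right arm peaks were in the better-scoring 50%. Median widths became 416 and 429 bp in the better-scoring 50%, 560 and 2150 bp after merging, 403 to 512 bp (left) and 396 to 528.5 bp (right) without either replicate. Other causes were not tested. No paired analysis was possible because no input peak list was used and both ChIP samples belong to 1 group. Depth is unknown and limits which weak peaks were called.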

Other observations

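The right end of III stood out among autosome ends. Its outermost 1 Mb held 149 series-list peaks, the most of the 10 autosome ends, and the left end of III held 112, against a range of 63 to 115 at the ends of the other 4 autosomes. In replicate 1 the right end of III held 40 peaks against 16 to 38 at the ends of other autosomes, and in replicate 2 it held 78 against 28 to 60. This comparison was chosen after seeing the values and has no test.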
